A study of Mus musculus with 14 samples.

Results

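Microglia are the resident macrophages of the brain, and 33 genes that mark them were followed across hypothalamic arrays of mice that differed in feeding state and in the gene Mfn1. The genes were taken from a list of microglial receptors, signalling adaptors, complement genes, lysosomal genes and leukocyte surface genes, and each was read from the probe set that names that gene alone and has the highest mean over all arrays. Of the 33 genes, 32 were measured among 17097 genes in all; no probe set named Siglech in the annotation used.

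Microglia depend on the receptor CSF1R for survival and patrol the tissue with fine processes, which the purinergic receptor P2RY12 directs towards nucleotides released by other cells. The surface receptor TREM2 signals through the adaptor TYROBP, and complement C1q, which microglia make in the brain, tags synapses and debris for removal. In the hypothalamus they lie close to the neurons that control feeding, and they are known to respond to diet.

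The mice were 12 weeks old, on a mixed C57Bl/6J, FVB/N and 129 background. Control mice and POMCMfn1KO mice, which lack Mfn1 in neurons expressing pro-opiomelanocortin (POMC), were either fed at random or fasted for 16 h. There were 4 control fed, 3 control fasted, 4 knockout fed and 3 knockout fasted samples, each on 1 Affymetrix array made from 150 ng of RNA. The deletion is targeted to POMC neurons, not to microglia. The Cre driver, the sex and the number of mice per array were not given in the sources used here, and the p-values cover only how far these samples spread, which may be technical.

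Values are log2 expression, on which a difference of 1 is a factor of 2. Errors of differences are standard errors (SE) of a limma fit over all 14 arrays, and a gene is called higher or lower where its p, adjusted over all 17097 genes by the Benjamini-Hochberg method, is under 0.05. Array medians lay between 4.98 and 5.05, and probe sets without a target had a median of 3.64 and a highest single value of 5.8. The hypothalamic peptide genes Pmch and Hcrt had means of 12.42 and 10.55. Mfn1 lay between 8.99 and 9.12 on every array; POMC neurons make up little of the tissue, and the exons deleted may not be those probed, so this does not check the labels. Each sample title carries a number, and the numbers fall into a lower and a higher range. All 6 fasted arrays had numbers of the lower range and 7 of the 8 fed arrays numbers of the higher one. Knockout fed replicate 1 was the fed array with a low number. What the numbers stand for is not given, and in control mice fasting and title number cannot be told apart.

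Many of the microglia genes were lower in fasted than in fed mice. Averaged over both genotypes (6 fasted and 8 fed arrays), 15 of the 32 were called lower and 0 higher in limma, where 4.90% of all genes were called lower and 5.14% higher. The list was chosen with earlier results of these data known, so this count is not independent of them. Of 36 further genes of microglia and myeloid cells, described below, 3 were called lower and 2 higher. The difference was below 0 for 27 of the 32, where this held for 49.1% of all genes. An unadjusted p under 0.05 was found in limma for 24 of the 32, and for 4448 of all 17097 genes. Their median difference was -0.26, against 0.00 over all genes. The genes that were lower included receptors, the TREM2 adaptor chain, surface proteins and lysosomal genes, but none of the 3 C1q genes. In bulk tissue fewer microglia and less RNA per cell cannot be told apart. Feeding state also went with the range of title numbers on every array but knockout fed replicate 1. Differences with title number as a covariate are given below.

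**Figure D1:**
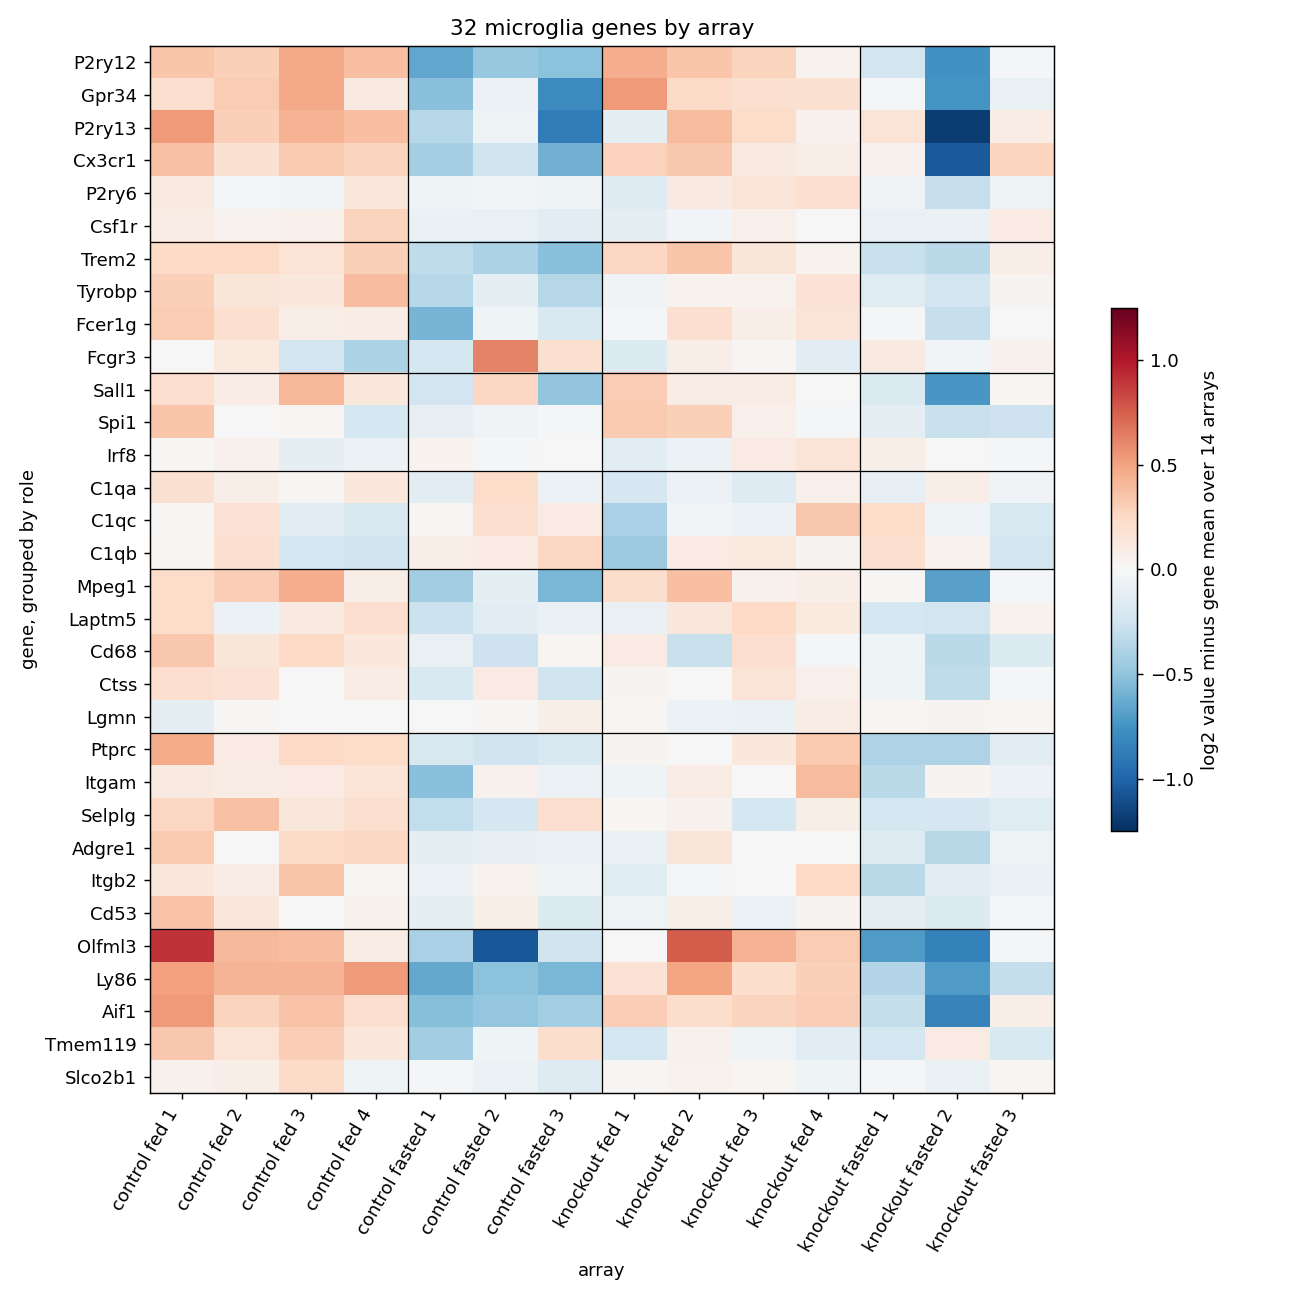
Log2 value of each of the 32 microglia genes on each of the 14 arrays, minus the gene's mean over all arrays; genes are grouped by role and arrays by genotype and feeding state, with red above and blue below the mean. Receptor genes and Ly86, Aif1 and Olfml3 are mostly red in fed and blue in fasted columns, whereas C1qa, C1qb, C1qc, Lgmn and Irf8 show no such split.

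Among the 6 receptor genes, 3 were called lower. P2ry12, the ADP receptor by which microglia sense injury, was at 7.75, 7.70, 7.88 and 7.78 in control fed replicates 1 to 4, at 6.75, 6.93 and 6.89 in control fasted, at 7.86, 7.75, 7.68 and 7.45 in knockout fed and at 7.17, 6.65 and 7.39 in knockout fasted. Every fasted array was below every fed array. The averaged difference was -0.77 ± 0.10 (SE), or 1.70-fold lower, with an adjusted p of 0.000638 in limma.

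Gpr34, a receptor for lysophosphatidylserine, was at 6.09, 6.20, 6.36 and 6.00 in control fed and 5.36, 5.81 and 5.09 in control fasted arrays. In knockout mice it was at 6.42, 6.13, 6.09 and 6.08 fed and 5.86, 5.14 and 5.79 fasted. Fed and fasted arrays again did not overlap, and Gpr34 fell by 0.66 ± 0.13 (adjusted p = 0.00709 in limma). Cx3cr1, the receptor for the neuronal chemokine fractalkine, lay between 8.27 and 8.55 on the 8 fed arrays, at 7.77, 7.94 and 7.59 in control fasted and at 8.24, 7.14 and 8.46 in knockout fasted arrays. Here 1 fasted knockout array was as high as the fed ones and another was the lowest of all. The fall of 0.58 ± 0.16 (adjusted p = 0.0360 in limma) was 0.38 without knockout fasted replicate 2, and 8 of 20 alternative analyses called it.

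The other receptors were not called. P2ry13, a second ADP receptor, had a difference of -0.64 ± 0.19 (adjusted p = 0.0522 in limma), with fasted values from 5.44 to 6.80 and fed values from 6.51 to 7.16. Csf1r, the survival receptor, was at 7.42 ± 0.11 (SD, n = 4) in control fed, 7.20 ± 0.03 (n = 3) in control fasted, 7.28 ± 0.08 (n = 4) in knockout fed and 7.28 ± 0.11 (n = 3) in knockout fasted arrays. Its averaged difference was -0.11 ± 0.05 (adjusted p = 0.179 in limma), a small shift beside that of P2ry12. P2ry6, a UDP receptor tied to phagocytosis, had a mean under 5, near the level of probe sets without a target, and its difference was -0.15 (adjusted p = 0.140 in limma).

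**Figure D2:**
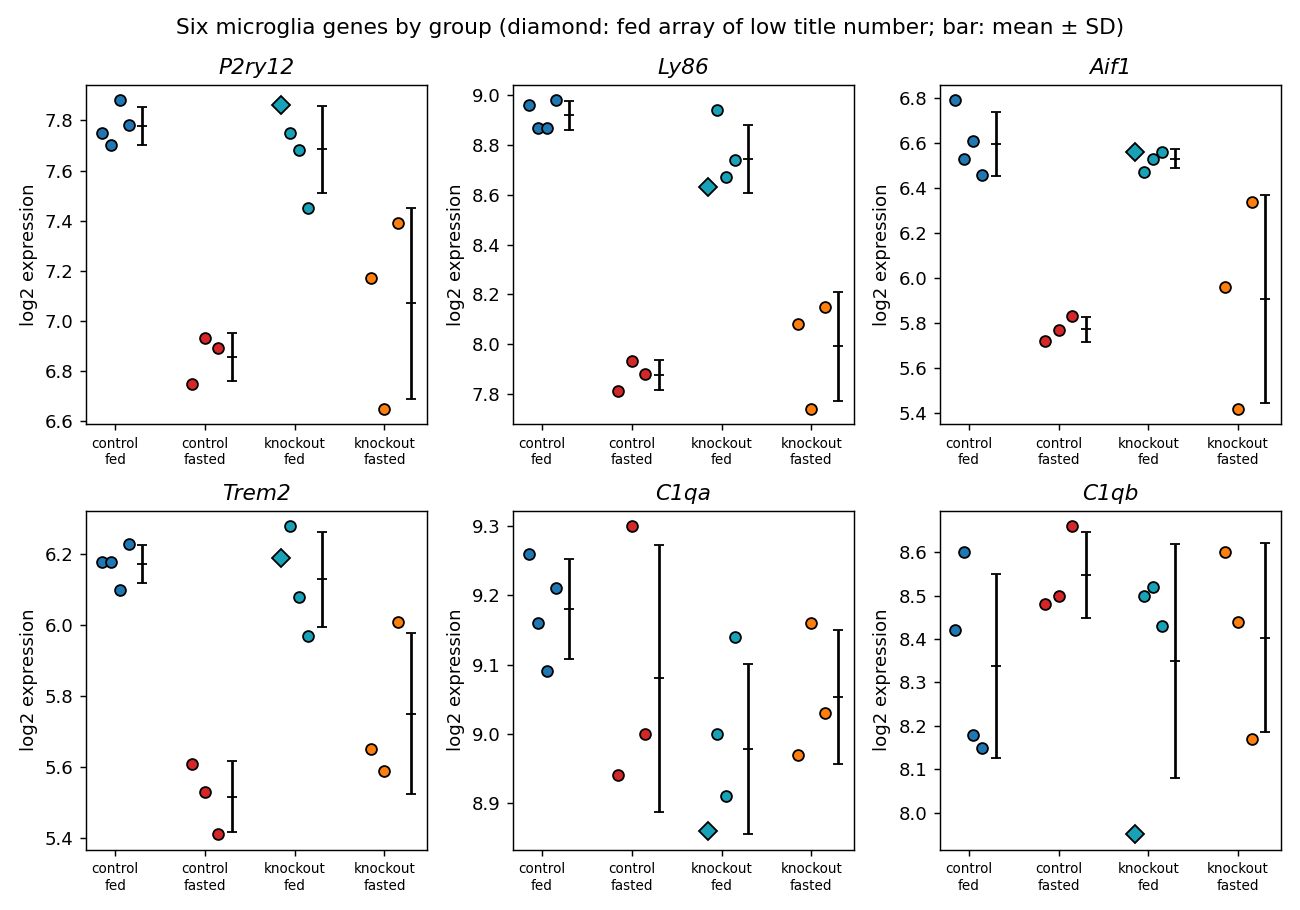
Log2 expression of P2ry12, Ly86, Aif1, Trem2, C1qa and C1qb on each array by group (points), with the group mean and SD as bars (n = 4 fed and 3 fasted per genotype); the diamond is knockout fed replicate 1, the fed array of low title number. For P2ry12, Ly86 and Aif1 no fasted point reaches the fed points, and for Trem2 1 knockout fasted point at 6.01 does; C1qa and C1qb overlap between feeding states.

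Trem2, Tyrobp, Fcer1g and Fcgr3 encode receptors and adaptors that signal through immunoreceptor tyrosine-based activation motifs. Of these 4 genes, 3 were called lower. Trem2 was at 6.18, 6.18, 6.10 and 6.23 in control fed and at 5.61, 5.53 and 5.41 in control fasted arrays. In knockout mice it was at 6.19, 6.28, 6.08 and 5.97 fed and at 5.65, 5.59 and 6.01 fasted, so that knockout fasted replicate 3 lay inside the fed range. Trem2 fell by 0.52 ± 0.07 (adjusted p = 0.000820 in limma). Its second probe set had a mean of 3.83, close to background, and averaging both left a fall of 0.28.

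Tyrobp, the adaptor of TREM2, was at 8.42, 8.27, 8.25 and 8.50 in control fed and at 7.76, 8.0 and 7.76 in control fasted arrays. In knockout mice it was at 8.07, 8.16, 8.16 and 8.30 fed and at 7.97, 7.88 and 8.15 fasted. It fell by 0.35 ± 0.06 (adjusted p = 0.00490 in limma), with a gap between the groups in control mice and overlap in knockout mice. Fcer1g, the gamma chain shared by Fc receptors, fell by 0.33 ± 0.08 (adjusted p = 0.0218 in limma). Fcgr3, a low-affinity Fc receptor that uses this chain, went the other way without being called, at 7.20 ± 0.23 (SD, n = 4) in control fed and 7.52 ± 0.42 (n = 3) in control fasted arrays, and its averaged difference was 0.21 ± 0.12 (adjusted p = 0.269 in limma).

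Ly86, Aif1 and Olfml3 had some of the largest differences of the 32 genes. Ly86, whose product MD-1 binds the Toll-like receptor homologue RP105, was at 8.96, 8.87, 8.87 and 8.98 in control fed, 7.81, 7.93 and 7.88 in control fasted, 8.63, 8.94, 8.67 and 8.74 in knockout fed and 8.08, 7.74 and 8.15 in knockout fasted arrays. Fed and fasted arrays were separated by a clear gap, from 8.15 to 8.63. Ly86 fell by 0.90 ± 0.07, or 1.87-fold (adjusted p = 6.64e-06 in limma), the smallest p of the 32.

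Aif1, which encodes the calcium-binding protein IBA1 used to stain microglia, was at 6.79, 6.53, 6.61 and 6.46 in control fed and at 5.72, 5.77 and 5.83 in control fasted arrays. It was at 6.56, 6.47, 6.53 and 6.56 in knockout fed and at 5.96, 5.42 and 6.34 in knockout fasted arrays. The groups did not overlap, and Aif1 fell by 0.72 ± 0.11 (adjusted p = 0.00172 in limma). Olfml3, an extracellular matrix protein gene enriched in microglia, lay between 6.12 and 7.02 fed and between 5.06 and 6.10 fasted, and it fell by 0.96 ± 0.18 (adjusted p = 0.00533 in limma).

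Tmem119, a membrane protein gene that separates microglia from other macrophages, was not called. It was at 6.64, 6.47, 6.61 and 6.43 in control fed, 5.87, 6.25 and 6.52 in control fasted, 6.08, 6.36, 6.24 and 6.17 in knockout fed and 6.08, 6.40 and 6.11 in knockout fasted arrays. Only the control fed arrays were high as a group, and 1 control fasted array reached into their range. The averaged difference was -0.17 ± 0.09 (adjusted p = 0.265 in limma). Slco2b1, a transporter gene enriched in microglia, had a difference of -0.10 (adjusted p = 0.212 in limma).

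The genes of complement C1q, whose 3 chains form one protein, were not called after the fast. C1qa was at 9.26, 9.16, 9.09 and 9.21 in control fed, 8.94, 9.30 and 9.0 in control fasted, 8.86, 9.0, 8.91 and 9.14 in knockout fed and 8.97, 9.16 and 9.03 in knockout fasted arrays. C1qb was at 8.42, 8.60, 8.18 and 8.15, then 8.48, 8.50 and 8.66, then 7.95, 8.50, 8.52 and 8.43, and then 8.60, 8.44 and 8.17 in the same groups and order. C1qc was at 8.23, 8.39, 8.08 and 8.01, then 8.23, 8.41 and 8.31, then 7.81, 8.18, 8.14 and 8.55, and then 8.44, 8.16 and 8.01. Fed and fasted values of all 3 chains overlapped. The averaged differences were -0.01 ± 0.06 for C1qa, 0.13 ± 0.11 for C1qb and 0.09 ± 0.11 for C1qc, with adjusted p of 0.932, 0.472 and 0.658 in limma.

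The promoters of P2ry12 and C1qb are shown because the pair stands for the genes that fell and those that did not. Both hold the letters AGGAAGT, a form of the site bound by ETS factors such as PU.1, the product of Spi1 and a master regulator of macrophages. The sequences are from RefSeq on GRCm38.p6, 100 bases before the gene start, written 5′ to 3′ on the gene's strand, with the motif in capitals. P2ry12 lies on the minus strand at chr3:59262986-59263085 and has the motif from base 52 to base 46 before the start, on its own strand; C1qb lies on the minus strand at chr4:136886201-136886300 and has it from base 53 to base 47, on the opposite strand.
P2ry12: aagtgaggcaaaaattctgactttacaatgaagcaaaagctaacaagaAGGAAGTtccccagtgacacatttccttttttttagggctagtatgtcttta
C1qb: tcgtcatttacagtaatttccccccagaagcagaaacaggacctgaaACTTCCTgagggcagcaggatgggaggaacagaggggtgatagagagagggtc

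A promoter window of 250 bases before to 50 after the start was found for 22 of the 32 genes. These genes had 30 windows in the table. AGGAAGT on either strand was present in 9 of the 30, and in 9.35% of all 32851 windows in the table. The 9 windows were of 8 genes, P2ry12, C1qb, C1qc, Ctss, Cd53, Ptprc, Sall1 and Slco2b1. Of the genes called lower, 2 of the 11 with a window held it, and of the others 6 of 11. A core of the interferon-stimulated response element (GAAA, then any 2 bases, then GAAA, on either strand) was in 2 of the 30 windows, of Aif1 and Ctss, and in 3.44% of all windows. A match is a description of these letters and not of binding.

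The transcription factors that set microglial identity were not called between fed and fasted mice. Sall1, which keeps microglia in their resting identity, was at 6.33, 6.22, 6.54 and 6.25 in control fed and 5.88, 6.38 and 5.63 in control fasted arrays, and at 6.44, 6.22, 6.22 and 6.12 in knockout fed and 5.94, 5.40 and 6.15 in knockout fasted. Its difference was -0.40 ± 0.13 (adjusted p = 0.0667 in limma), with control fasted replicate 2 inside the fed range, and -0.17 with its 2 probe sets averaged; 4 of 20 alternative analyses called it. Spi1 had a difference of -0.24 (adjusted p = 0.0848 in limma) and Irf8, a macrophage transcription factor that acts with PU.1, one of 0.01 (adjusted p = 0.897 in limma). Both had means under 5, so these values say little about their level.

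Of the 5 genes of lysosome and phagocytosis, 3 were called lower. Mpeg1, which encodes the pore-forming protein perforin-2, was at 8.09, 8.16, 8.31 and 7.94 in control fed, 7.42, 7.73 and 7.28 in control fasted, 8.08, 8.23, 7.91 and 7.94 in knockout fed and 7.87, 7.18 and 7.84 in knockout fasted arrays. It fell by 0.53 ± 0.11 (adjusted p = 0.0116 in limma), and the groups did not overlap. Laptm5 and Cd68, both membrane proteins of lysosomes, fell by 0.26 ± 0.07 and 0.26 ± 0.08 (adjusted p = 0.0309 and 0.0498 in limma). Laptm5 was called in 10 and Cd68 in 5 of 20 alternative analyses. Ctss, the protease cathepsin S, had a difference of -0.22 (adjusted p = 0.0584 in limma), and Lgmn, the protease legumain, one of 0.05 (adjusted p = 0.505 in limma) with all values between 9.81 and 10.03.

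Leukocyte surface genes had 3 of 6 called lower. Ptprc, the phosphatase CD45, was at 6.04, 5.68, 5.82 and 5.80 in control fed, 5.37, 5.33 and 5.38 in control fasted, 5.61, 5.58, 5.71 and 5.90 in knockout fed and 5.19, 5.19 and 5.44 in knockout fasted arrays. All fasted values were below all fed values, and Ptprc fell by 0.45 ± 0.07 (adjusted p = 0.00172 in limma). Adgre1, which encodes the macrophage antigen F4/80, fell by 0.26 ± 0.06 (adjusted p = 0.0171 in limma). Selplg, the P-selectin ligand, fell by 0.26 ± 0.08 (adjusted p = 0.0472 in limma), and 5 of 20 alternative analyses called it. The integrin genes Itgam and Itgb2 and the tetraspanin gene Cd53 had differences of -0.27, -0.19 and -0.15 (adjusted p = 0.0945, 0.100 and 0.142 in limma).

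Counting arrays in place of the fit, 7 of the 32 genes had every fasted array below every fed array, where this held for 1.49% of all genes: P2ry12, Aif1, Ly86, Olfml3, Gpr34, Ptprc and Mpeg1. The reverse held for 0 of the 32 and for 1.92% of all genes. With knockout fed replicate 1 set aside, 10 genes had this pattern (2.12% of all genes), the 3 added being Tyrobp, Fcer1g and Adgre1, and 0 the reverse (2.21%). Single arrays stood low or high for many of the genes at once. Knockout fasted replicate 2 was the lowest of the 14 arrays for 14 of the 32 genes, where it was the lowest for 11.2% of all genes, and control fed replicate 1 was the highest for 12 of the 32, where it was the highest for 10.3% of all genes. On that array genes of other cells were high as well: the median deviation from each gene's mean over 14 arrays was 0.28 over 10 border macrophage genes, 0.22 over 9 monocyte and neutrophil genes, 0.20 over 8 class II genes, 0.43 over 3 red blood cell genes and 0.82 over 10 choroid plexus genes. Their part in the microglia values of that array was not tested.

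In control mice alone (3 fasted and 4 fed arrays), 9 of the 32 genes were called lower and 0 higher in limma, against 1.12% of all genes lower and 1.64% higher. An unadjusted p under 0.05 was found for 22 of the 32, and for 2985 of all 17097 genes. The 9 called genes were Ly86 (-1.05 ± 0.10), Olfml3 (-1.02 ± 0.25), P2ry12 (-0.92 ± 0.14), Aif1 (-0.82 ± 0.15), Gpr34 (-0.74 ± 0.18), Trem2 (-0.66 ± 0.10), Mpeg1 (-0.65 ± 0.16), Tyrobp (-0.52 ± 0.09) and Ptprc (-0.48 ± 0.10). All control fasted arrays lay below all control fed arrays for 17 genes, where this held for 8.57% of all genes, and above them for 0 (7.94%). Without control fasted replicate 1, 5 of the 9 were called, and the share of all genes called in that fit is not given here.

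In knockout mice alone (3 fasted and 4 fed arrays), 1 of the 32 genes was called lower and 0 higher in limma, against 0.228% of all genes lower and 0.468% higher. An unadjusted p under 0.05 was found for 13 of the 32, and for 2816 of all 17097 genes. The called gene was Ly86, which fell by 0.76 ± 0.10 (adjusted p = 0.00257 in limma). P2ry12 was at -0.62 ± 0.14, Aif1 at -0.62 ± 0.15, Trem2 at -0.38 ± 0.10 and Olfml3 at -0.90 ± 0.25, none of them called. All knockout fasted arrays lay below all knockout fed arrays for 9 genes, where this held for 5.64% of all genes, and above them for 0 (7.37%). With replicate 1 of the fed arrays set aside the numbers were 15 genes (9.30%) and 0 (10.1%). Without knockout fasted replicate 3, the array with the highest fasted values of Aif1, Trem2 and P2ry12, 6 genes were called: Ly86, P2ry12, Aif1, Ptprc, Trem2 and Olfml3. This was the highest count when 1 array was left out, in a range of 1 to 6. Without control fed replicate 1 Ptprc was called beside Ly86. The shares of all genes called in both of these fits are not given here. The count was also 3 without the 40% of genes with the lowest mean (0.790% of the genes left, adding P2ry12 and Ptprc) and 3 with a trended robust prior (0.848% of all genes, adding P2ry12 and Aif1), and 0 in a fit of these groups alone (0.00585%).

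**Figure D3:**
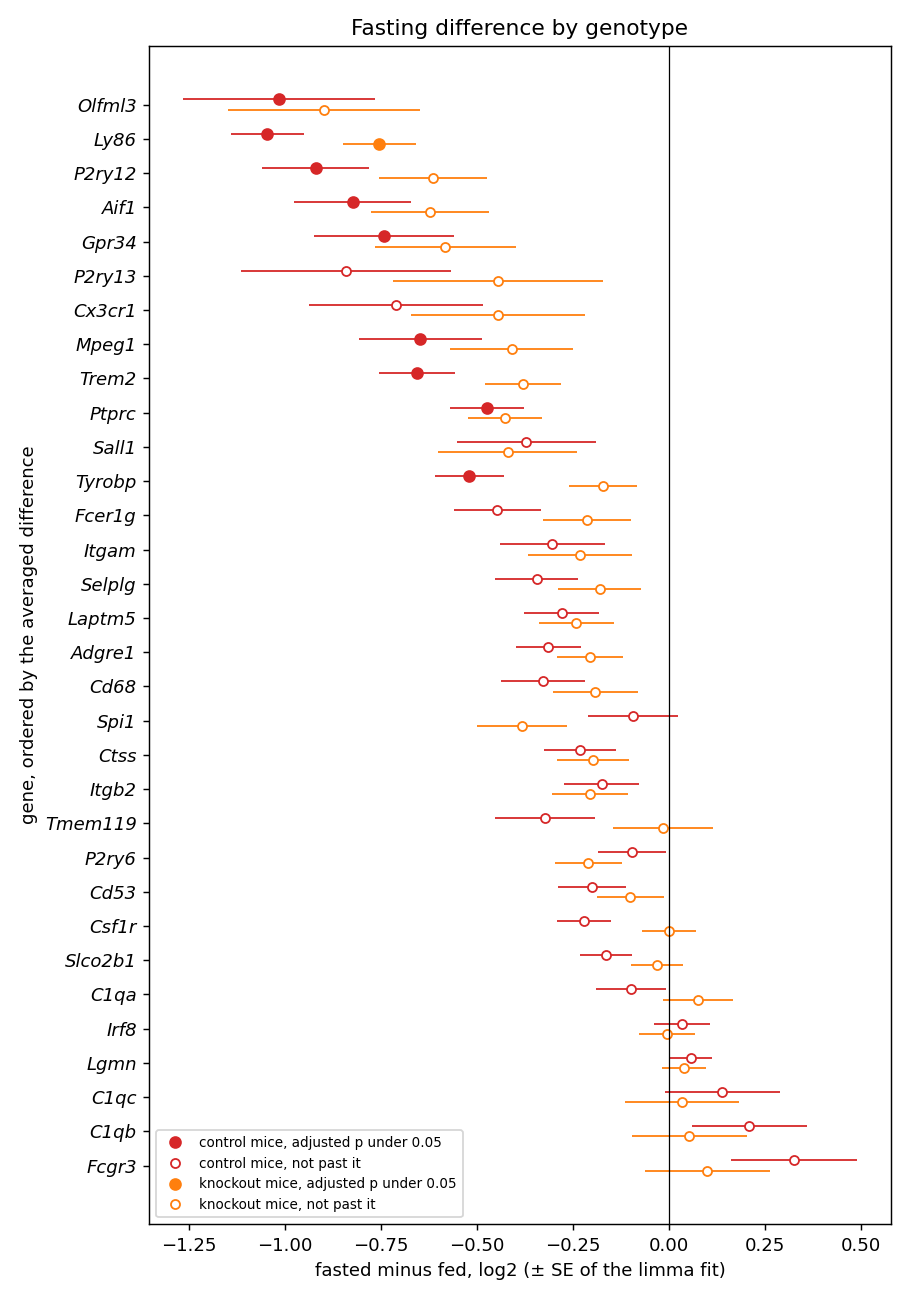
Fasted minus fed log2 difference of each of the 32 microglia genes in control mice (red) and knockout mice (orange), with the SE of the limma fit as bars; filled points have an adjusted p under 0.05. In both genotypes 27 of the 32 differences are below 0; 9 are filled in control mice and 1, Ly86, in knockout mice.

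The smaller count in knockout mice was not shown to be a difference between the genotypes. The interaction, in which the fasting difference of control mice is subtracted from that of knockout mice, was called for 0 of the 32 genes in limma (0% of all genes). An unadjusted p under 0.05 was found for 653 of all 17097 genes, and for 3 of the 32. These 3 were Tyrobp (0.35 ± 0.13, unadjusted p = 0.0162), Csf1r (0.22 ± 0.10, 0.0455) and Ly86 (0.29 ± 0.13, 0.0486), each with an adjusted p of 1.0. The interaction was above 0 for 23 of the 32 genes, with a median of 0.12. Over all genes it was above 0 for 9215 of 17097, with a median of 0.01.

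Between genotypes no microglia gene was called. Averaged over feeding states, 0 of the 32 were called in limma (0.00585% of all genes lower) and the median was -0.03. An unadjusted p under 0.05 was found for 795 of all 17097 genes, and for 2 of the 32. Those were Adgre1 (-0.14 ± 0.06) and Selplg (-0.18 ± 0.08), both with an adjusted p of 0.999. In fed mice 0 were called in limma (0.00585% of all genes lower, 0% higher) and 5 had an unadjusted p under 0.05 (790 of all 17097 genes). Tmem119 was at 6.54 ± 0.10 (SD, n = 4) in control fed and 6.21 ± 0.12 (n = 4) in knockout fed arrays, which did not overlap, and its difference of -0.32 ± 0.12 (SE) had an adjusted p of 0.995 in limma. Selplg did not overlap either, at -0.26 ± 0.10, and these were 2 of the 32 genes where 1.48% of all genes had the knockout fed arrays below all control fed arrays; 0 had them above (0.977%). In fasted mice 0 genes were called in limma (0% of all genes) and 1 had an unadjusted p under 0.05 (660 of all 17097 genes), Trem2 at 0.23 ± 0.11. Itgb2 and Spi1 had all knockout fasted arrays below all control fasted arrays, 2 genes where 3.45% of all genes did, and 0 had them above (4.19%). Genes of the choroid plexus, a neighbouring tissue, had a median genotype difference of 1.51 over 10 genes, of which 0 were called in limma and 9 had an unadjusted p under 0.05. Their mean level was 5.46 to 7.76 in control fed, 5.56 to 6.72 in control fasted, 5.63 to 8.51 in knockout fed and 7.69 to 7.85 in knockout fasted arrays. Control fed replicate 1 had the 7.76 and knockout fed replicate 1 the 5.63, so the genotypes overlapped in fed mice, and the part of these genes in the microglia values was not tested.

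The fed array of low title number gave the only fed values from the range of numbers that held the fasted arrays. It was below all 7 other fed arrays for 16 of the 32 microglia genes, where this held for 15.7% of all genes, and above all of them for 1, Gpr34 (11.8% of all genes). The 16 genes were P2ry13, P2ry6, Tyrobp, Tmem119, C1qa, C1qb, C1qc, Csf1r, Ly86, Olfml3, Laptm5, Fcer1g, Itgam, Itgb2, Irf8 and Adgre1. They included all 3 C1q chains, which were not called between fed and fasted mice. Against the 3 other knockout fed arrays alone it was below all for 17 (27.7% of all genes) and above all for 4, P2ry12, Gpr34, Sall1 and Spi1 (22.8%). On average C1qb was at -0.53 ± 0.18 there against those 3, C1qc at -0.48 ± 0.19 and P2ry6 at -0.32 ± 0.10. These genes had an unadjusted p under 0.05 and 0 genes were called in limma (0.0292% of all genes lower), in a fit that assumes this lone array to vary like the others.

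A fit over the other 13 arrays left this array out and called 13 of the 32 genes lower after the fast (4.87% of all genes), 12 of the 15 above and P2ry6. This array was afterwards set against the ranges of the other arrays. For P2ry12, Aif1, Trem2, Gpr34, Mpeg1 and Ptprc it was at the level of the fed arrays, that is no lower than the lowest of the 7 and above every fasted array. P2ry12 was at 7.86 there, against 7.45 to 7.88 on the other fed and 6.65 to 7.39 on the fasted arrays, and Aif1 at 6.56, against 6.46 to 6.79 and 5.42 to 6.34.

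For Tyrobp, Fcer1g, Laptm5, Adgre1 and P2ry6 the held-out array lay within the fasted range and below all other fed arrays. Tyrobp was at 8.07 there, against 8.16 to 8.50 on the other fed and 7.76 to 8.15 on the fasted arrays. Ly86 and Olfml3 lay between the ranges, Ly86 at 8.63 next to the lowest other fed value of 8.67. Olfml3 was at 6.12, next to the highest fasted value of 6.10, with the lowest other fed value at 6.21. So 6 of the 13 genes were at the fed level, 5 within the fasted range and 2 between, while of the 833 genes called lower by this fit 51.1% were at the fed level, 31.6% within the fasted range, 5.64% between and 11.6% in both ranges. Choroid plexus genes had a median difference of -2.67 on it against the 3 other knockout fed arrays, over 10 genes of which 0 were called and 10 had an unadjusted p under 0.05; their part in these values was not tested.

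**Figure D4:**
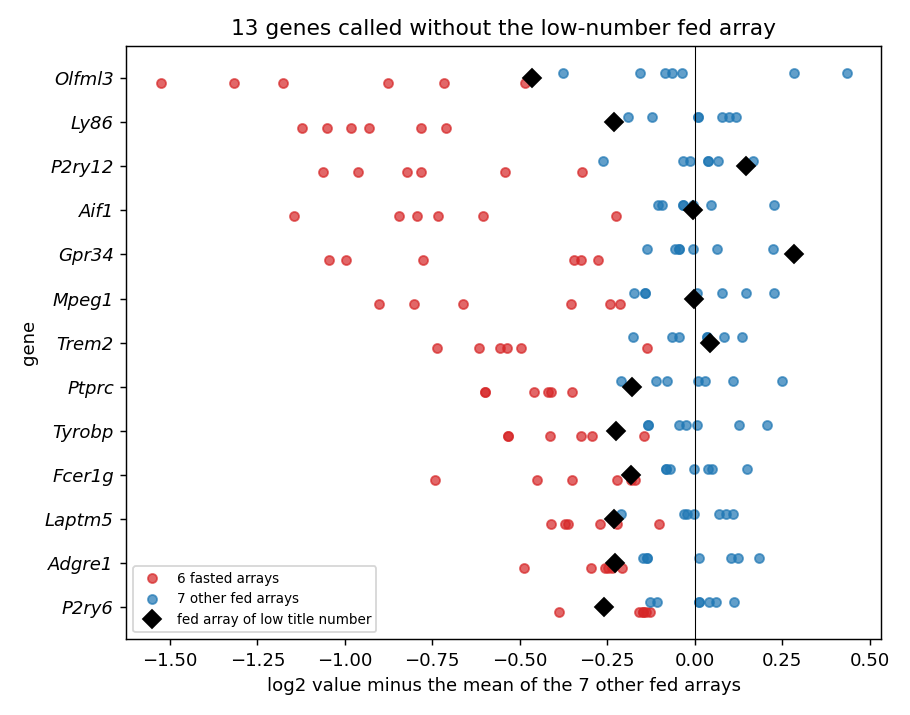
The 13 microglia genes called lower after the fast without the fed array of low title number, as log2 values minus the mean of the 7 other fed arrays (blue), with the 6 fasted arrays (red) and the held-out array (black diamond). The diamond lies among the blue points for P2ry12, Aif1, Mpeg1, Trem2 and Ptprc, above them for Gpr34, and among the red points for Tyrobp, Fcer1g, Laptm5, Adgre1 and P2ry6.

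The held-out array was then set against the 3 knockout fasted arrays. Knockout fasted minus held-out was -0.79 ± 0.21 for P2ry12, -0.82 ± 0.27 for Gpr34, -0.65 ± 0.24 for Aif1, -0.64 ± 0.14 for Ly86 and -0.44 ± 0.15 for Trem2. Of the genes called lower in the averaged contrast, those nearest 0 here were Laptm5 (-0.047 ± 0.135), Tyrobp (-0.070 ± 0.135), Fcer1g (-0.087 ± 0.173) and Adgre1 (-0.103 ± 0.128). This comparison rests on 1 fed array, whose own spread cannot be seen. The difference was below 0 for 23 of the 32 genes, where this held for 45.3% of all genes. C1qb had a difference of 0.45 ± 0.18, above 0. With the lower range of title numbers as a covariate, which rests on the same lone array, 0 of the 32 genes were called lower after the fast (0.0117% of all genes). The fasting difference was then -0.97 for P2ry12, -0.94 for Gpr34, -0.77 for Ly86, -0.76 for Aif1 and -0.59 for Trem2, but -0.23 for Tyrobp, -0.18 for Fcer1g and -0.03 for Laptm5. With a covariate for the 5 lowest numbers, which are those of knockout fed replicate 1, control fasted replicate 1 and all knockout fasted arrays, 6 were called (0.801% of all genes), namely P2ry12, Aif1, Trem2, Ly86, Gpr34 and Ptprc.

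Genes of other cells that a dissected hypothalamus can hold were read on the same arrays. Of 10 genes of border macrophages, the macrophages of brain vessels and membranes, 0 were called lower and 1, Lyve1, higher (0.20 ± 0.05) after the fast, with a median of -0.07. Of all genes 4.90% were called lower and 5.14% higher. Their mean level per array was 4.33 to 4.71 in control fed, 4.36 to 4.47 in control fasted, 4.30 to 4.40 in knockout fed and 4.33 to 4.42 in knockout fasted arrays. The defining markers Mrc1 and Cd163 had means of 5.03 and 4.03. Of 9 monocyte and neutrophil genes 0 were called in limma, 0 had an unadjusted p under 0.05 and the median was -0.01; Ccr2 had a mean of 4.42. The mean level of these 9 genes was 4.11 to 4.79 in control fed, 4.12 to 4.24 in control fasted, 4.13 to 4.23 in knockout fed and 4.03 to 4.45 in knockout fasted arrays. The mean levels of both lists were under 5 on every array, near background, so these counts say little about the cells.

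Genes of the other glia differed between fed and fasted mice in part. Of 12 astrocyte genes 4 were called higher after the fast (5.14% of all genes) and 1 lower (4.90%), with a median of 0.08. The higher ones were the connexin Gjb6 (0.72 ± 0.08), the growth factor receptor Fgfr3 (0.60 ± 0.05), angiotensinogen Agt (0.56 ± 0.05) and Aldh1l1 (0.33 ± 0.04), and the water channel Aqp4 was lower (-0.36 ± 0.06). The mean level of the astrocyte list was 9.27 to 9.36 in control fed and 9.48 to 9.62 in control fasted arrays, and 9.27 to 9.33 in knockout fed and 9.45 to 9.50 in knockout fasted arrays. Of 10 oligodendrocyte genes 3 were called lower (4.90% of all genes), Opalin (-1.19 ± 0.16), Ugt8a (-1.01 ± 0.11) and Ermn (-0.45 ± 0.10), and 2 higher (5.14%), Cldn11 (0.30 ± 0.05) and Mobp (0.18 ± 0.04), with a median of 0.00. Their mean level was 10.28 to 10.37 in control fed, 10.07 to 10.12 in control fasted, 10.21 to 10.39 in knockout fed and 9.94 to 10.31 in knockout fasted arrays. The part of astrocyte and oligodendrocyte genes in the microglia values was not tested.

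**Figure D5:**
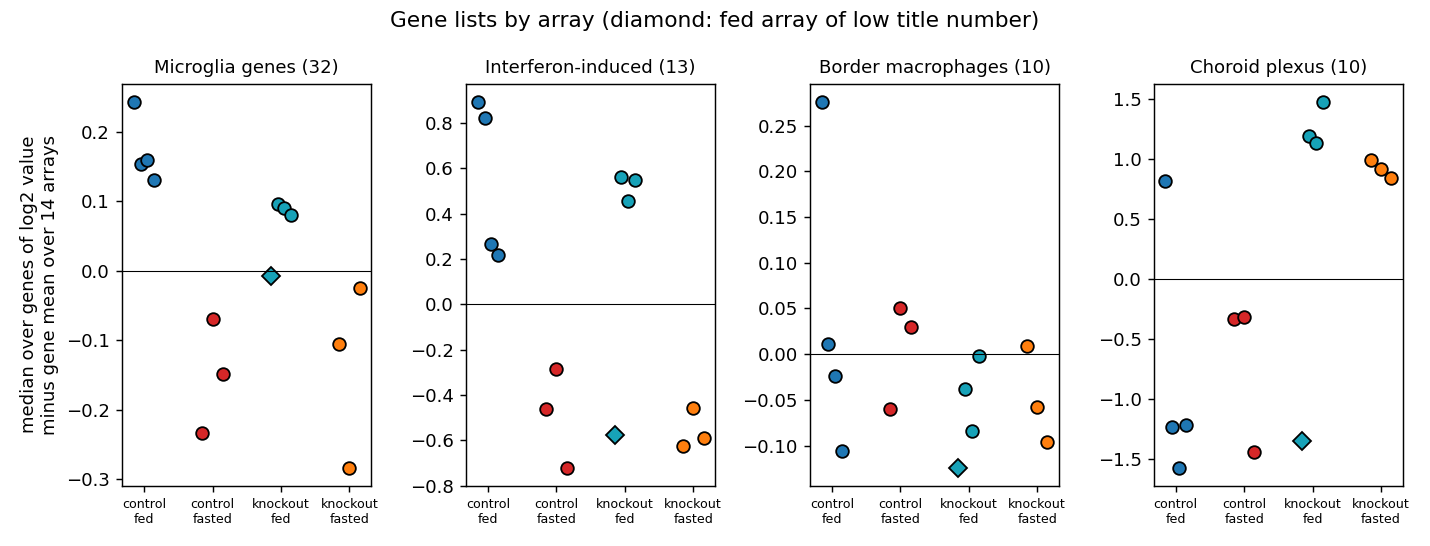
Median over genes of the log2 value minus the gene's mean over 14 arrays, for the 32 microglia genes, 13 interferon-induced genes, 10 border macrophage genes and 10 choroid plexus genes, by array (points) and group; the diamond is the fed array of low title number. The microglia median is 0.13 to 0.24 in control fed and -0.23 to -0.07 in control fasted arrays, and the diamond, at -0.01, lies below the other fed arrays; in the interferon panel it lies among the fasted arrays.

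Interferon-induced genes, which microglia and other cells express, were lower as a list on the fasted arrays than on 7 of the 8 fed arrays. The fed array of low title number lay among the fasted arrays, with a median deviation of -0.58. Of 13 such genes 11 were called lower after the fast (4.90% of all genes), with a median of -0.97. The held-out array differed from the other knockout fed arrays by a median of -1.18 over these genes and from the knockout fasted arrays by 0.00. Of 10 endothelial genes 3 were called lower (4.90% of all genes), Tek (-0.64 ± 0.12), Emcn (-0.61 ± 0.13) and Cdh5 (-0.30 ± 0.05), while Cldn5 and Pecam1 were not called. Of 12 neuronal genes 0 were called in limma, 0 had an unadjusted p under 0.05 and the median was -0.01. The part of interferon-induced and endothelial genes in the microglia values was not tested.

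Among 36 further genes of microglia and myeloid cells 3 were called lower (4.90% of all genes) and 2 higher (5.14%) after the fast, with a median of -0.09. Both counts lay near those shares. The lower ones were Fcrls, an Fc receptor-like gene of microglia (-0.74 ± 0.21), Coro1a, an actin-binding protein of leukocytes (-0.28 ± 0.05), and Inpp5d, the phosphatase SHIP1, which dampens signals from TYROBP (-0.25 ± 0.07). Mertk, a receptor for the uptake of dead cells that astrocytes also express, rose by 1.15 ± 0.13 (adjusted p = 0.000185 in limma). It lay between 6.94 and 7.36 in control fed, 8.28 and 8.79 in control fasted, 7.15 and 7.74 in knockout fed and 8.07 and 8.71 in knockout fasted arrays, so that fed and fasted did not overlap. Gas6, a ligand of MERTK, was the 1 gene called, higher by 0.18 ± 0.04 (5.14% of all genes higher), among 13 ligands and transforming growth factor beta genes that act on microglia. Rnase4, a secreted ribonuclease, was also higher (0.21 ± 0.05).

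Genes tied to microglial activation were read from lists of their own, beside 4.90% of all genes called lower and 5.14% higher. In bulk tissue their values are not those of microglia alone. Levels ranged widely, with means of 12.27 for Apoe and 11.61 for Ctsb. Il1b, Il6 and Ccl3 had means of 4.03, 4.01 and 4.25, near the median of 3.64 of probe sets without a target. Of 16 genes of disease-associated microglia 1 was called lower, the tetraspanin Cd9 (-0.32 ± 0.05), and 1 higher, the chemokine Ccl3 (0.32 ± 0.07), with a median of 0.00. Of 15 inflammatory genes 2 were called higher, the NF-kappa-B inhibitor Nfkbia (1.37 ± 0.21) and the transcription factor Cebpb (0.48 ± 0.11), and 0 lower. Of 8 genes of class II antigen presentation 0 were called in limma and 2 had an unadjusted p under 0.05 (4448 of all 17097 genes), with a median of -0.13.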

How the data were processed

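The deposited table holds log2 expression values of 45141 probe sets on 14 arrays, for which the submitters' processing notes name RMA and affy; their versions and genome build are not given in the sources used here. RMA summarises probes and compresses small differences of dim probe sets. Values were used as deposited, and no column was left out (0 unused). The arrays correlated across probe sets with a Pearson's r of 0.9908 to 0.9968. The number of arrays limits the precision.

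Probe sets naming 1 gene (28898) were kept, and 551 naming several and 15692 naming none were not. Of the 32 genes measured, 25 had 1 probe set. Of the tested genes' IDs, 99.1% were in the RefSeq table of GRCm38.p6. The fits used limma 3.58.1 under R 4.3.3 (lmFit with 1 coefficient per group, contrasts, eBayes; residual degrees of freedom 10, prior 3.27; 9 residual with the lone array as a group of its own). Tests were two-sided. The genes and lists were chosen with earlier results of these data known. Every measured gene of the 33 is accounted for; the identity genes and up to 15 called genes are given in full, and of each other list up to 4 called genes per direction. Cldn5, Pecam1, Mrc1, Cd163 and Ccr2 were named as defining markers after their values were seen. In a test on simulated data 200 of 17097 genes were changed. At a log2 change of 0.5 it recovered 89% in the averaged fasting contrast, 71.5% in control and 67% in knockout mice. In the same order, 16, 16 and 3 unchanged genes were called. The noise was drawn independently for each gene and array, without shifts shared by many genes. The share recovered in the real data may therefore differ. Alternatives were a filter on the lowest 40% of genes, averaged probe sets, centring, a trended robust prior, only the groups compared, 2 title number covariates and leaving out each array.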

Additional observations from a re-analysis of the deposited data

Results flagged for a closer look

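In groups of 4 arrays, 1 array stood far from the other 3 for 4 of the microglia genes and for their median, over 66 groups checked, where chance gives about 1 in 20. C1qb was lowest in knockout fed replicate 1, at 7.95 against 8.43 to 8.52 on the other knockout fed arrays, and Gpr34 was highest there, at 6.42 against 6.08 to 6.13. The median over the 32 genes of the value minus the gene's mean was -0.007 on that array, against 0.08 to 0.096 on the other 3. It is the fed array with the low title number. Selplg was lowest in knockout fed replicate 3, at 7.29 against 7.54 to 7.59, and Lgmn in control fed replicate 1, at 9.81 against 9.93 to 9.95.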

How the results depend on the processing

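All 15 genes called lower in the averaged fasting comparison kept their sign in all 20 alternatives. Ly86, P2ry12, Trem2, Aif1, Ptprc and Gpr34 were called in 19 of 20, the exception being the covariate for the lower range of title numbers, and Cx3cr1 in 8, Laptm5 in 10, Cd68 in 5 and Selplg in 5. Of the genes not called, P2ry13, Ctss and Sall1 were called in 4 each and P2ry6, Itgam and Spi1 in 1. The averaged count of 15 was 0 with that covariate, 6 with the covariate for the 5 lowest numbers, and 11 to 17 when 1 array was left out. In control mice the count of 9 was 0 with the first covariate and 5 to 13 when 1 array was left out. In knockout mice the count of 1 was 3 without the 40% of genes with the lowest mean, 3 with a trended robust prior, 0 in a fit of only the groups compared, 0 with either covariate, and 1 to 6 when 1 array was left out. For counts with 1 array left out, the share of all genes is given only for the averaged fit without knockout fed replicate 1. The covariates set the fed level of the low numbers by 1 array; the cause of the other changes was not tested. The counts for genotype, the interaction and the lone array were 0 in every alternative run. The averaged median of -0.26 was -0.18 and -0.19 with the covariates.

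Genes with means under 5 (P2ry6, Itgam, Irf8 and Spi1) lie near background, where RMA values compress differences. The called genes Ptprc, Cd68 and Adgre1 had means of 5.57, 5.35 and 5.21, below the highest single value of 5.8 for a probe set without a target. No paired analysis was possible because the title numbers all differ and pair no samples across groups.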
